A study of Mus musculus with 8 samples.

Results

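The extracellular matrix and integrin genes of mouse neurosphere cells were followed through exposure to 2 chromatin drugs. The members were the probe sets with a single annotated symbol that began with Col and a digit, Lama, Lamb, Lamc, Itga, Itgb, Timp or Mmp, or that equalled Fn1, Sparc, Nid1 or Tnc. The rule used names and no measured value. It gave 119 probe sets of 80 genes, out of 12488 probe sets on the array. Of these, 60 probe sets of 45 genes had enough signal to be tested (at least 2 of 8 arrays at a signal of 50 or more), out of 7987 tested in all. A probe set with low signal everywhere but in 1 condition enters through that condition, so counts over the 60 describe the tested probe sets and not the whole family.

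Neurospheres are free-floating cultures of neural stem and progenitor cells. Here they were grown from the forebrains of embryos at embryonic day 14.5, each isolated individually. All embryos carried a bcl2 transgene, so every group, untreated cells included, shares it. The promoter of that transgene is not given in the sources used here. The groups were AzaC/TSA (500 nM AzaC with 150 nM TSA), TSA (150 nM), AzaC (500 nM) and untreated, with exposure for 2 days. AzaC is 5-aza-2'-deoxycytidine, which blocks DNA methyltransferases, and TSA is trichostatin A, which blocks histone deacetylases. Each group had 2 arrays of total RNA, 1 from each of 2 independent experiments.

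The extracellular matrix is the protein network that cells secrete and rest on. Fibrillar collagens form its ropes, while laminins, nidogen and collagen IV form the sheet called the basement membrane, which in the developing forebrain lies under the outer surface and around vessels. Integrins are receptors made of an alpha and a beta subunit that bind these proteins and tie them to the actin skeleton. Matrix metalloproteinases cut the matrix, and the tissue inhibitors of metalloproteinases (Timp) block them.

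Every array had a trimmed mean signal of 200.1, and the share of probe sets at or above the filter signal was 53.1% to 58.3%. Signals under 20 were raised to that floor before logarithms, so a change is written "at least" where the lower group had an array under the floor and the higher group had none. Groups were compared for overlap on these floored signals. The median 95% half-width of the members' log2 changes was 0.93 for the 4 TSA-exposed arrays against the 4 others and 1.31 between single groups, a precision set by the small number of arrays. The neural stem and progenitor list had 8 of 10 genes on the array at a testable signal. Its summed signal was 6560 to 14501 on TSA-exposed arrays and 15419 to 17965 on the others. A sum weighs the strongest probe sets most. Of the 10 tested probe sets, 5 had a log2 change with TSA above 0 and 5 below (median -0.0057). Hes5 and Vim were under the filter, and a Nes probe set was under the floor on all 8 arrays. The neuron list summed to 4965 to 7924 on TSA-exposed arrays and 3325 to 4399 on the others, with 13 of 15 tested probe sets above 0 and 2 below. The fibroblast and meninges list summed to 1874 to 2364 on TSA-exposed arrays and 2723 to 3467 on the others. By probe set it did not lean lower, with 9 of 14 tested above 0 and 5 below (median log2 change 0.17). Cdh5, Cldn5, Emcn, Icam2 and Tie1 of endothelial cells, and Aif1, C1qb, Lyz2, Mpeg1 and Ptprc of microglia and macrophages, were under the floor on all 8 arrays. Other markers of both lists were detected: 4 of 21 endothelial and 5 of 25 microglia and macrophage probe sets reached the filter. The 5' to 3' signal ratio of actin, a sign of RNA integrity, was 0.29 to 0.39 on TSA-exposed arrays and 0.332 to 0.471 on the others. In these bulk samples, fewer cells of a type and less RNA per cell cannot be told apart, and the part of these marker and RNA differences in the results was not tested.

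The comparison of the 4 TSA-exposed arrays with the 4 not exposed asked which matrix and integrin transcripts differ under histone deacetylase inhibition, with or without AzaC. Transcripts for the inhibitor Timp1, the integrin subunits Itgb5, Itgb1 and Itga3, the laminin chain Lama5 and the collagen chains Col5a1 and Col11a1 rose, and Col9a3 fell. These 8 probe sets were the members past the threshold (7 higher and 1 lower of 60, limma, adjusted p under 0.05 over all probe sets). That of Itga3 reached the filter signal on TSA-exposed arrays alone. Over all 7987 tested probe sets 14.5% passed, 6.95% higher and 7.56% lower, so the members' share of 13.3% was near the background. At an unadjusted p under 0.05 there were 20 members (33.3%, against 29.6% of all). In each of the 8 the direction was shared by both experiments. A fit with the experiment as a block gave 16 higher and 1 lower, which included all 8, while over all tested probe sets it passed 23.9%. Leaving out 1 array gave 3 (without untreated 2) to 8 calls.

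**Figure D1:**
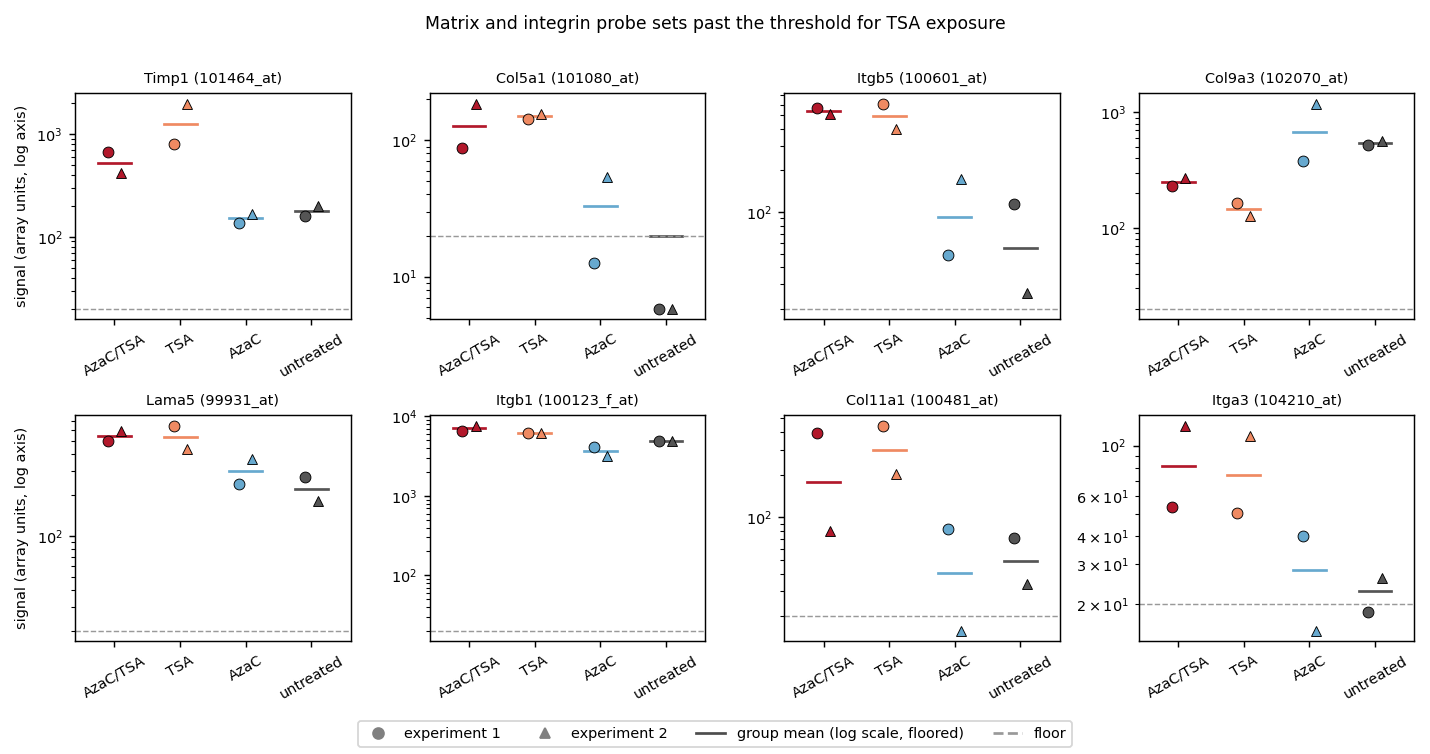
Signal on each array (log axis, array units) for the 8 matrix and integrin probe sets past the threshold for TSA exposure. Circles are experiment 1, triangles experiment 2, horizontal lines the group means of floored log signals, and the dashed line the floor of 20. Timp1 lies at 413 or more on the 4 TSA-exposed arrays and at 201 or less on the others, while Col9a3 lies lower on the TSA-exposed arrays.

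Timp1, a secreted inhibitor of matrix metalloproteinases, gave signals of 667 and 413 in AzaC/TSA cells, 795 and 1971 in TSA cells, 137 and 167 in AzaC cells, and 159 and 201 in untreated cells, in each case for experiments 1 and 2. All 4 TSA-exposed arrays lay above all others, and the highest signal was that of TSA in experiment 2. The rise was 4.93-fold (log2 change 2.30, SE 0.31, n = 4 arrays each, limma adjusted p = 0.00237). The log2 change was 2.30 in experiment 2 and 2.30 in experiment 1. It passed in all 19 alternatives, the 8 that left out an array included. A second Timp1 probe set had at most 10.9 on any array and was not tested.

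Itgb5, the integrin beta 5 subunit, which pairs with alpha v to bind vitronectin, gave 567 and 509 in AzaC/TSA cells, 610.3 and 396 in TSA cells, 48.6 and 173 in AzaC cells, and 115 and 26.1 in untreated cells. The groups did not overlap: the lowest TSA-exposed array had 396 and the highest other array 173. The rise was 7.25-fold (2.86, SE 0.52, n = 4 arrays each, limma adjusted p = 0.0085), with log2 changes of 2.74 in experiment 2 and 2.97 in experiment 1. A second Itgb5 probe set, of a type that can match related transcripts, gave 86.6 and 83.2 in AzaC/TSA cells, 74.8 and 73.6 in TSA cells, 62.7 and 104 in AzaC cells, and 68.8 and 56.6 in untreated cells. Its log2 change was 0.16 (SE 0.29, adjusted p = 0.759), so the 2 probe sets of this gene disagree.

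Itgb1, the beta 1 subunit shared by most laminin and collagen receptors, gave 6509 and 7656 in AzaC/TSA cells, 6109 and 6108 in TSA cells, 4128 and 3203 in AzaC cells, and 4862 and 4895 in untreated cells. The TSA-exposed arrays all lay above the others, and the AzaC arrays were the lowest. The rise was 1.56-fold (0.64, SE 0.16, limma adjusted p = 0.031, n = 4 arrays each), and the log2 change was 0.79 in experiment 2 and 0.49 in experiment 1. It passed without AzaC 1 and was lost without any 1 of the other 7 arrays, where the adjusted p was 0.0574 to 0.0945. The second Itgb1 probe set also had all TSA-exposed arrays above the others, with a log2 change of 0.49 and an adjusted p of 0.146, which did not pass. Both have names that mark a family or a reduced design rule, and such probe sets can also pick up related transcripts.

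Itga3, the alpha 3 subunit of a laminin receptor, gave 53.6 and 122 in AzaC/TSA cells, 50.4 and 109.6 in TSA cells, 40.1 and 15.3 in AzaC cells, and 18.5 and 26.1 in untreated cells. The TSA-exposed arrays lay above the others, with a gap of 50.4 against 40.1 between the nearest. The rise was at least 3.05-fold (1.61, SE 0.45, limma adjusted p = 0.0455, n = 4 arrays each). The call was also lost without any 1 of 7 arrays (adjusted p up to 0.143), all but AzaC/TSA 1. By experiment the log2 change was 2.34 in experiment 2 and 0.88 in experiment 1. Its second probe set had a log2 change of 0.46 (adjusted p = 0.446).

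Col5a1, the alpha 1 chain of collagen V, which helps set the thickness of collagen fibrils, was measured by 2 probe sets. The first gave 87.1 and 186 in AzaC/TSA cells, 142.5 and 157 in TSA cells, 12.6 and 53.6 in AzaC cells, and 5.8 and 5.8 in untreated cells, with both untreated arrays and 1 AzaC array under the floor. All TSA-exposed arrays lay above the others, and the rise was at least 5.39-fold (2.43, SE 0.41, limma adjusted p = 0.00612, n = 4 arrays each), with log2 changes of 2.38 in experiment 2 and 2.48 in experiment 1. The second gave 248 and 246 in AzaC/TSA cells, 244.5 and 344.5 in TSA cells, 156 and 199 in AzaC cells, and 102 and 160.5 in untreated cells. It also showed no overlap, but its log2 change of 0.83 (SE 0.24) did not pass (adjusted p = 0.0508). With the experiment as a block its adjusted p was 0.0143.

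Col11a1, a chain of the fibrillar collagen XI, gave 392 and 80.4 in AzaC/TSA cells, 442 and 200.5 in TSA cells, 82.7 and 15.8 in AzaC cells, and 71.0 and 33.7 in untreated cells. Within each experiment both TSA-exposed arrays were higher than both others, yet the 4 overlapped the others, because AzaC/TSA 2 (80.4) was below AzaC 1 (82.7). The rise was at least 5.15-fold (2.37, SE 0.62, limma adjusted p = 0.0361, n = 4 arrays each), and with the experiment as a block the adjusted p was 0.000446. By experiment the log2 changes were 2.29 in experiment 2 and 2.44 in experiment 1. Without the block it was lost without any 1 of 6 arrays (AzaC/TSA 1, TSA 1, TSA 2, AzaC 2, untreated 1 and untreated 2; adjusted p 0.0603 to 0.126).

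Lama5, the laminin alpha 5 chain, gave 498 and 589.5 in AzaC/TSA cells, 643.5 and 437 in TSA cells, 241.5 and 366 in AzaC cells, and 272 and 179 in untreated cells. The groups did not overlap, and the rise was 2.09-fold (1.07, SE 0.24, limma adjusted p = 0.0213, n = 4 arrays each). By experiment the log2 changes were 0.99 in experiment 2 and 1.14 in experiment 1. It was lost without AzaC/TSA 2 (adjusted p = 0.0635), TSA 1 (0.0809), AzaC 1 (0.0643) or untreated 2 (0.0796). A second Lama5 probe set had a log2 change of 0.69 and did not pass (adjusted p = 0.344).

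Col9a3, a chain of collagen IX, which sits on the surface of cartilage fibrils, gave 233 and 271 in AzaC/TSA cells, 165 and 127 in TSA cells, 383.5 and 1195 in AzaC cells, and 520.0 and 561 in untreated cells. It was the member that fell, 3.17-fold (-1.67, SE 0.33, limma adjusted p = 0.0122, n = 4 arrays each), with the highest TSA-exposed array at 271 and the lowest other array at 384. The log2 change was -2.14 in experiment 2 and -1.19 in experiment 1. It was lost without TSA 2 (adjusted p = 0.0509) or untreated 2 (0.0526).

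The stretch before the annotated start is shown for 4 of the genes that rose together without overlap, Timp1, Itgb5, Col5a1 and Lama5. Each line holds the 250 bases upstream of the start on the gene's own strand, from RefSeq on GRCm38.p6. They lie at chrX:20869916-20870165 (Timp1, plus strand), chr16:33829415-33829664 (Itgb5, plus), chr2:27886175-27886424 (Col5a1, plus) and chr2:180225860-180226109 (Lama5, minus). Capitals mark GGGCGG or its reverse complement CCGCCC, the core of the GC box to which Sp1-type factors are known to bind.
Timp1: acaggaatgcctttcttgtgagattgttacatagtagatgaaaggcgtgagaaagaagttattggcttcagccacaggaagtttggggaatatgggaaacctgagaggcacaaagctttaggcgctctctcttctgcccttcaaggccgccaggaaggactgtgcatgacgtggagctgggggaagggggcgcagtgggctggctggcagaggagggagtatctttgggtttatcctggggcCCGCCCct
Itgb5: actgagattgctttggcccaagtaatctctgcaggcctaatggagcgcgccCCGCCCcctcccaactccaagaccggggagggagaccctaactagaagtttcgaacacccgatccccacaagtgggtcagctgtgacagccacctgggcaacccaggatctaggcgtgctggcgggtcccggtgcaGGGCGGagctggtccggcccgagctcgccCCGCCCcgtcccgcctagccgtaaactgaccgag
Col5a1: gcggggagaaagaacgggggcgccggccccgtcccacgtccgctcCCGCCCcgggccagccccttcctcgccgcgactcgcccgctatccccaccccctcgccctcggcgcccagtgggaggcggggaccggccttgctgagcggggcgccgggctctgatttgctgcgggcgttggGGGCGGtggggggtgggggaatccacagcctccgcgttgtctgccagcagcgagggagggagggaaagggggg
Lama5: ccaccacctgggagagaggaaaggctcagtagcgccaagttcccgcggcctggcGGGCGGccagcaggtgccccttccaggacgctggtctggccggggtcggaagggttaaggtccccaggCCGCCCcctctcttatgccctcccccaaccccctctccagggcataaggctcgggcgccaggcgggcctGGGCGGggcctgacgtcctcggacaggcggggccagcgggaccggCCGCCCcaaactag

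The Timp1 window held 1 GC box and 6 CG pairs. The Itgb5 window held 3 and 18, that of Col5a1 2 and 28, and that of Lama5 4 and 19. Among all 32851 promoter windows of this length 32.7% held a GC box, with a median of 6 CG pairs. Of the windows of all members 30 of 63 did (47.6%), and of those of the tested members 25 of 37 (67.6%). The share among all genes tested on the array was not computed, so tested members are not set against other genes with signal. RefSeq windows were matched by symbol for 55 of the 80 member genes. The motif TGANTCA, which reads the same way on both strands and is the core bound by AP-1, was in none of the 4 windows. It was in 1 of 37 windows of the tested members (2.7%), in 7 of 63 of all members (11.1%) and in 6.7% of all promoter windows. These matches describe the letters of the windows, and no factor binding was measured.

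**Figure D2:**
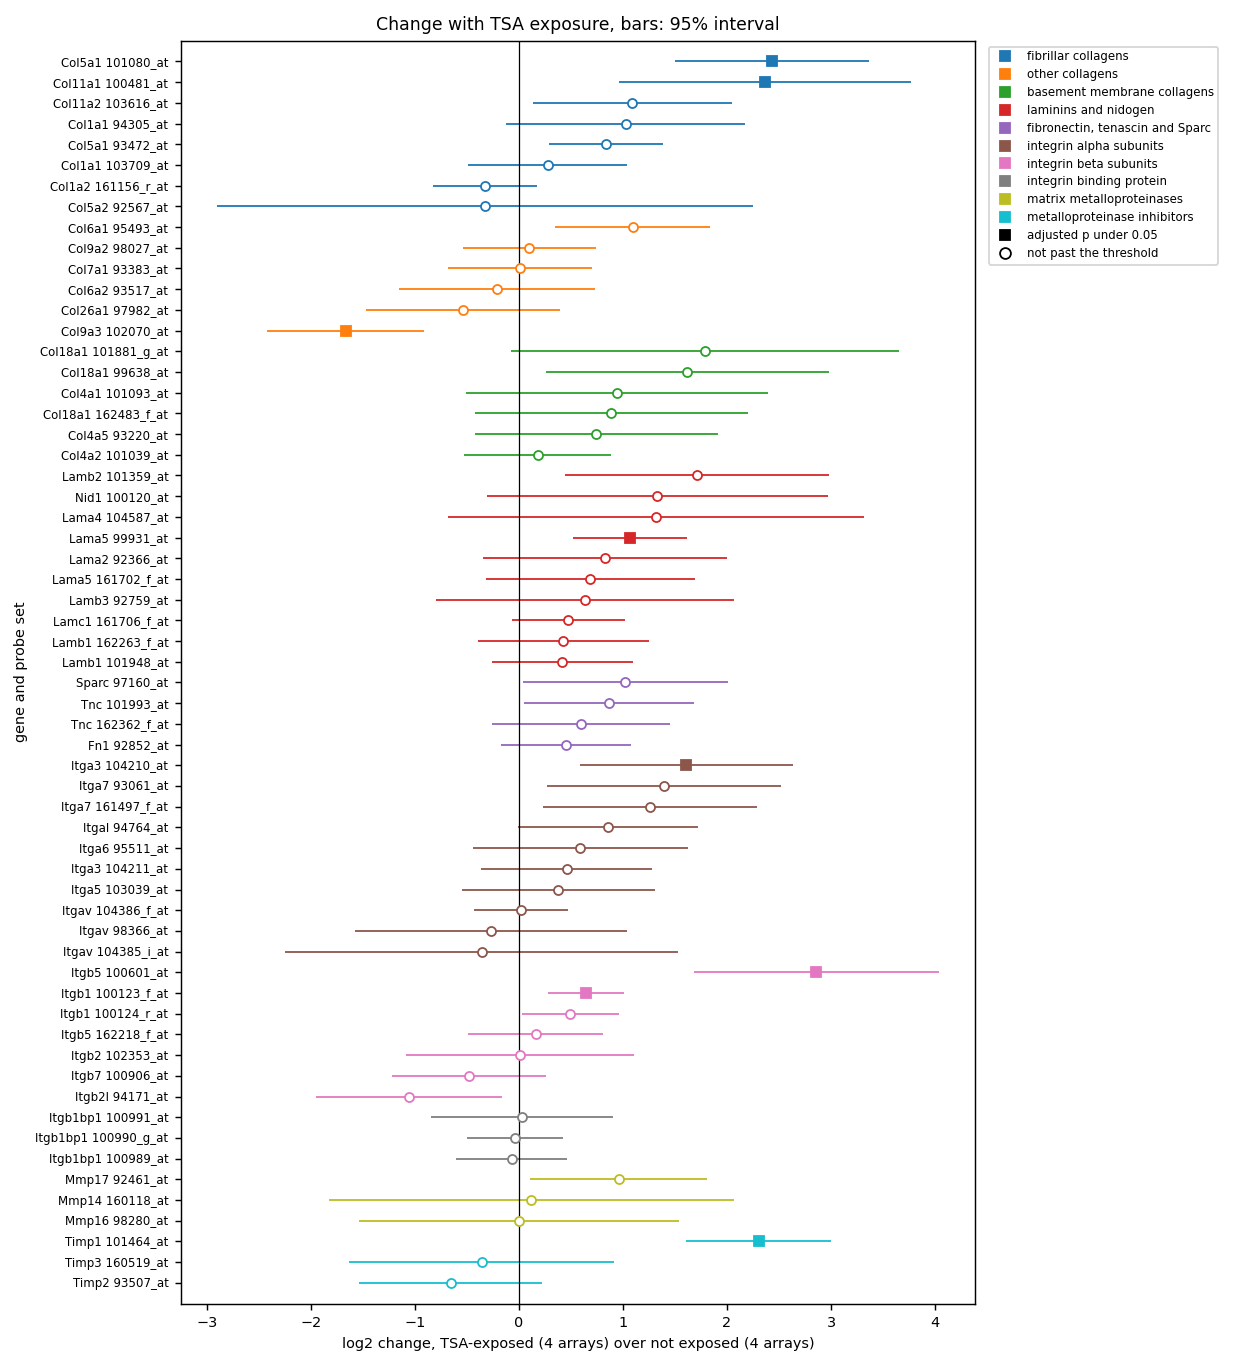
Log2 change of the 4 TSA-exposed arrays over the 4 not exposed for the 60 tested member probe sets, grouped and coloured by role, with 95% intervals. Filled squares are past the threshold. Timp1, Itgb5, Col5a1 and Col11a1 are the filled squares farthest right, Col9a3 is the filled square left of 0, and most other intervals reach 0.

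How far the tested members lay to the higher side depended on the signal filter. The median log2 change of the 60 was 0.54, with 46 above 0 and 14 below, against a median of -0.03 over all tested probe sets. Of the 60, 7 reached the filter signal on TSA-exposed arrays alone (Itga3, Nid1, Lama2, Col11a2, 1 Col1a1 and 2 Col18a1 probe sets) and 2 on the other arrays alone (Col26a1 and Itgb2l). The 51 that reached it in both had a median of 0.46, with 39 above 0. Over all 119 member probe sets, with no filter, the median was 0.067, with 68 above 0, 38 below and 13 with no difference on floored signals. The 59 untested ones alone had a median of 0, with 22 above 0 and 24 below. Over all 12422 probe sets without the filter the median was 0. Among the tested, a change past 2-fold in either direction was seen in 31.7% of the members and 15.3% of all. In 12 of the 60 (20%) the 4 TSA-exposed arrays all lay above the 4 others, against 11% of all tested probe sets. In 2 (Col9a3 and Itgb2l, 3.33%) they all lay below, against 12.6%. Itga3 among the former and Itgb2l among the latter reached the filter on 1 side alone. Within experiments, 33 members were higher with TSA in both and 7 lower in both, and the median log2 change was 0.536 in experiment 2 and 0.415 in experiment 1. Where a gene had several tested probe sets they were each counted.

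Laminins and nidogen had 10 tested probe sets (median log2 change 0.76), of which 1 of Lama5 passed (10%, against 14.5% of all). Of these, 2 (Nid1 and Lama2) reached the filter on TSA-exposed arrays alone, and of the 5 untested ones 2 lay above 0 and 3 below. Lamb2, the beta 2 chain, gave 427.5 and 219 in AzaC/TSA cells, 497 and 202 in TSA cells, 156 and 108.5 in AzaC cells, and 174 and 27.9 in untreated cells, with no overlap between TSA-exposed and other arrays. Its log2 change was 1.71 (SE 0.56, adjusted p = 0.0754), and with the experiment as a block the adjusted p was 0.00425. Lamb1 and Lamc1, chains shared by most laminins, had log2 changes of 0.42 and 0.43 (2 probe sets of Lamb1) and 0.48 (Lamc1), with adjusted p of 0.401, 0.478 and 0.229. The tested Lamc1 probe set was a family-type one, which can also pick up related transcripts. Its signals were 443 and 656 in AzaC/TSA cells, 426 and 473 in TSA cells, 279.9 and 487 in AzaC cells, and 382 and 302 in untreated cells, and the groups overlapped. Another Lamc1 probe set had at most 37 on any array and was not tested.

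Nid1, which links laminin to collagen IV, gave 119 and 1.5 in AzaC/TSA cells, 134 and 16.6 in TSA cells, 9.1 and 2.0 in AzaC cells, and 14.9 and 16.1 in untreated cells. Signal stood above the floor on the TSA-exposed arrays of experiment 1 and on no other array, so its log2 change on floored signals of 1.33 (SE 0.72, adjusted p = 0.262) rests on 2 arrays. Lama4, a laminin chain of vessel walls, had a log2 change of at least 1.31, which did not pass (adjusted p = 0.365) but passed with the experiment as a block (0.0253). Lama2 and Lamb3 had arrays under the floor on both sides, so their changes on floored signals of 0.83 and 0.64 are no bounds, and neither passed (adjusted p = 0.33 and 0.549).

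Of basement membrane collagens, 0 of 6 tested probe sets passed (median log2 change 0.91), and with the experiment as a block 1 did. Over all tested probe sets the shares were 14.5% and, with the block, 23.9%. Both weaker Col18a1 probe sets among the 6 reached the filter through the TSA-exposed arrays of experiment 1 alone. Of the 5 untested probe sets 2 lay above 0 and 3 below. Col15a1, a relative of Col18a1, was among these, with at most 11.7 on TSA-exposed arrays and 24.4 to 36.6 on the others. Col18a1, whose cleaved end is endostatin, gave 338 and 91.7 in AzaC/TSA cells, 272.5 and 43.2 in TSA cells, 71.9 and 77.8 in AzaC cells, and 28.8 and 25.5 in untreated cells on its strongest probe set. Both TSA-exposed arrays of experiment 1 were high and those of experiment 2 overlapped the others. The log2 change was 1.62 (SE 0.60, adjusted p = 0.108, and 0.0279 with the experiment as a block), made of 0.50 in experiment 2 and 2.74 in experiment 1. Col4a1, the alpha 1 chain of collagen IV, gave 378 and 237 in AzaC/TSA cells, 376 and 93.4 in TSA cells, 257 and 173 in AzaC cells, and 197 and 26.2 in untreated cells. Untreated 2 was the lowest and the groups overlapped (0.94, SE 0.64, adjusted p = 0.371). Its partner chain Col4a2 gave 147 and 188 in AzaC/TSA cells, 206 and 116 in TSA cells, 161 and 214.5 in AzaC cells, and 152 and 76.1 in untreated cells, also with overlap (0.18, SE 0.31, adjusted p = 0.746). The sign for Col4a2 turned without TSA 1 (-0.024) or untreated 2 (-0.068).

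Of the interstitial collagens, 2 of 8 fibrillar probe sets rose (Col5a1 and Col11a1, 25%) and 1 of 6 other collagen probe sets fell (Col9a3, 16.7%). Over all tested probe sets 14.5% passed. Col6a1, a chain of the beaded filaments of collagen VI, gave 189 and 288.5 in AzaC/TSA cells, 192 and 492 in TSA cells, 135 and 126 in AzaC cells, and 100 and 146 in untreated cells, with all TSA-exposed arrays above the others. Its log2 change of 1.09 (SE 0.33) missed the threshold (adjusted p = 0.0579) and passed with the experiment as a block (0.0118). Col1a1 and Col1a2, the chains of the main fibrillar collagen I, gave log2 changes of 0.28 and, on floored signals, 1.02 (2 probe sets of Col1a1) and -0.32 (Col1a2), none past the threshold. The tested Col1a2 probe set has a name that marks a reduced design rule. Another Col1a2 probe set had at most 7.6 on any array and was not tested. Col3a1 had 3 probe sets, none of which was tested.

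Fibronectin, tenascin C and Sparc had 4 tested probe sets, all positive and none past the threshold. Fn1, the fibronectin that integrins bind on many cells, gave 268 and 626 in AzaC/TSA cells, 428 and 386 in TSA cells, 285 and 373 in AzaC cells, and 259 and 285 in untreated cells, and the groups overlapped (0.46, SE 0.28, adjusted p = 0.313). Sparc, a secreted collagen-binding glycoprotein, gave 993 and 1923 in AzaC/TSA cells, 1085 and 507 in TSA cells, 329 and 891 in AzaC cells, and 723 and 292 in untreated cells. It was highest on AzaC/TSA 2 and overlapped through TSA 2 and AzaC 2 (1.02, SE 0.43, adjusted p = 0.154).

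Tnc, tenascin C, a glycoprotein found around neural progenitors, gave 1548 and 3725 in AzaC/TSA cells, 1098 and 3118 in TSA cells, 1211 and 1194 in AzaC cells, and 1198 and 1031 in untreated cells. The 2 TSA-exposed arrays of experiment 2 stood far above the other 6, while in experiment 1 the 4 arrays lay between 1098 and 1548. The log2 change was 0.87 (SE 0.36, adjusted p = 0.146, and 0.0458 with the experiment as a block), made of 1.62 in experiment 2 and 0.11 in experiment 1. The second Tnc probe set gave 270.2 and 629 in AzaC/TSA cells, 209.6 and 522 in TSA cells, 324 and 185 in AzaC cells, and 280.4 and 211 in untreated cells, with changes of 1.54 in experiment 2 and -0.34 in experiment 1. On both probe sets the TSA-exposed arrays of experiment 2 were the highest of all 8.

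Of integrin subunits, 1 of 10 alpha probe sets (10%) and 2 of 7 beta probe sets (28.6%) rose past the threshold and none fell past it. Over all tested probe sets 14.5% passed. Itgb2l gave 17.8 and 21.1 in AzaC/TSA cells, 8.6 and 26.4 in TSA cells, 49.4 and 55.2 in AzaC cells, and 29.1 and 52.7 in untreated cells. All its TSA-exposed arrays lay below the others. It was lower by at least 1.06 on the log2 scale (SE 0.39), which did not pass (limma adjusted p = 0.109). Itga6, a laminin receptor subunit carried by neural stem cells, gave 373 and 423 in AzaC/TSA cells, 185 and 295 in TSA cells, 103 and 397 in AzaC cells, and 125 and 328 in untreated cells, with wide overlap (0.59, SE 0.46, adjusted p = 0.433). Itga7, another laminin receptor subunit, gave 217 and 143 in AzaC/TSA cells, 156 and 59.0 in TSA cells, 77.8 and 49.9 in AzaC cells, and 77.4 and 11.2 in untreated cells. Its 2 tested probe sets had log2 changes of at least 1.39 and 1.26 (adjusted p = 0.096 and 0.101), and with the experiment as a block 0.0103 and 0.023. Itgav, the partner of Itgb5, gave 2685 and 2644 in AzaC/TSA cells, 2336 and 1904 in TSA cells, 2509 and 2170.0 in AzaC cells, and 3025 and 1801 in untreated cells on its strongest probe set, a family-type one, with a log2 change of 0.02 (SE 0.20, adjusted p = 0.955). The 2 other Itgav probe sets had -0.36 and -0.27. The rule also took in Itgb1bp1, which is no subunit but a protein that binds the tail of beta 1, and its 3 probe sets had log2 changes of -0.07, -0.04 and 0.03.

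Of the matrix metalloproteinases, 3 of 13 genes on the array had a testable signal, and none passed without the block. Mmp17, a membrane-anchored protease, gave 117 and 96.2 in AzaC/TSA cells, 135 and 94.1 in TSA cells, 79.3 and 49.3 in AzaC cells, and 82.3 and 31.1 in untreated cells, with all TSA-exposed arrays above the others but a log2 change of 0.96 that did not pass (SE 0.38, adjusted p = 0.125, and 0.0396 with the experiment as a block). Mmp2, the gelatinase, had at most 37.5 on any array over its 2 probe sets and was not tested. The other inhibitors did not pass either. Timp2 gave 84.2 and 191 in AzaC/TSA cells, 40.6 and 92.2 in TSA cells, 116 and 213 in AzaC cells, and 115 and 131 in untreated cells (-0.66, SE 0.39, adjusted p = 0.3), with overlap between the groups. Timp3, the matrix-bound inhibitor, gave 685 and 134 in AzaC/TSA cells, 375 and 87.9 in TSA cells, 329 and 232.5 in AzaC cells, and 352 and 305 in untreated cells. With TSA it was higher in experiment 1 and lower in experiment 2 (-0.36, SE 0.56, adjusted p = 0.719). The sign for Timp3 turned without AzaC/TSA 2 (0.23) or TSA 2 (0.16).

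TSA cells against untreated cells asked for the change without AzaC. Timp1, Col5a1 and Itgb5 rose: Timp1 by 2.81 on the log2 scale (SE 0.44, adjusted p = 0.0123), Col5a1 at least 7.48-fold (2.90, adjusted p = 0.027) and Itgb5 8.96-fold (3.16, adjusted p = 0.0444; limma, n = 2 arrays each). These were 3 of 60 members, all higher, against 5.02% of all tested probe sets. The fit with the experiment as a block gave 8 higher (Timp1, Col11a1, both Col5a1 probe sets, Lamb2, Itgb5, Lama5 and Col6a1) and 1 lower (Col9a3), against 12.2% of all with the block. Without TSA 2 or untreated 2 none passed, and without TSA 1 only Timp1 did. Itgb5 was also lost without AzaC/TSA 1 (adjusted p = 0.0627) or AzaC/TSA 2 (0.0634), and Timp1 (0.0699) and Col5a1 (0.102) without untreated 1.

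AzaC/TSA cells against untreated cells had 1 member past the threshold, Col5a1, at least 6.36-fold higher (2.67, SE 0.58, limma adjusted p = 0.0452, n = 2 arrays each), against 3.12% of all probe sets. With the block 10 were higher, Itgb5, Timp1, Lamb2, Itga7, Col18a1 and Col4a1 among them, against 9.34% of all. The Col5a1 call was lost in 12 of 20 alternatives, among them without either AzaC/TSA array (adjusted p = 0.0951 and 0.235), either TSA array (0.0861 and 0.0877) or either untreated array (0.148 and 0.231). AzaC/TSA cells against AzaC cells had 0 members past the threshold by limma, against 2.79% of all. At an unadjusted p under 0.05 there were 9 (15%, against 18.1% of all). With the block 5 were higher, which were Col11a1, Itgb1, Timp1, Col5a1 and Itgb5 (8.33%, against 9.32% of all).

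The TSA change without AzaC and that with AzaC share no array. For the 60 members both had the same sign in 45 (75%), with a Pearson r of 0.689 and a Spearman rho of 0.708 taken over the probe sets, which do not count as replicates. Over all tested probe sets the same sign was seen in 74.8%, with r = 0.751 and rho = 0.667, so the members were near the rest of the array. Itgb5 changed by 2.55 in AzaC/TSA over AzaC cells and by 3.16 in TSA over untreated cells on the log2 scale. For Timp1 the values were 1.80 and 2.81, and for Col9a3 -1.43 and -1.90.

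**Figure D3:**
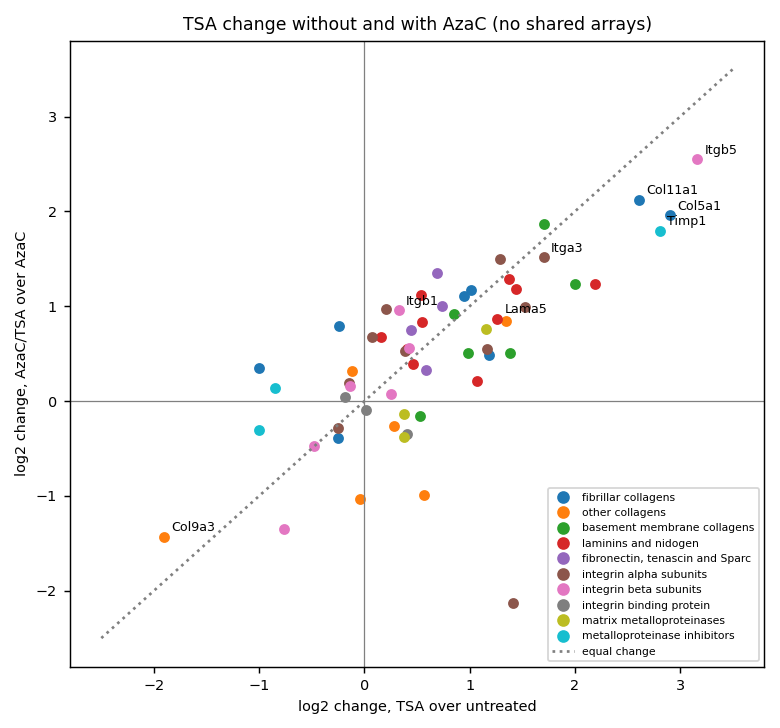
Log2 change of AzaC/TSA over AzaC cells (vertical) against that of TSA over untreated cells (horizontal) for the 60 tested member probe sets, coloured by role, with the dotted line of equal change. Names mark the 8 probe sets past the threshold for TSA exposure, and 45 of 60 points have the same sign on both axes.

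AzaC alone moved no member past the threshold. AzaC cells against untreated cells had 0 of 60 past the threshold by limma, against 0% of all tested probe sets with or without the block. At an unadjusted p under 0.05 there were 0 members, against 2.19% of all. The median log2 change was 0.18 and 6.67% of the members exceeded 2-fold, against 4.42% of all. AzaC/TSA cells against TSA cells likewise had 0 of 60 (0% of all), with 1 at an unadjusted p under 0.05 (2.32% of all). That was Timp1, at -1.25 with an adjusted p of 1. The interaction of AzaC with TSA had 0 of 60 past the threshold (0% of all) and 0 at an unadjusted p under 0.05 (1.78% of all). Its median 95% half-width, which is not adjusted for the number of tests, was 1.855 for members. Differences between the drugs' joint and separate changes below that size were thus mostly not detectable with these arrays. Larger ones could also miss the threshold, as 1 Itgav probe set did at -3.55 (limma unadjusted p = 0.0624).

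Both experiments held all 4 groups, so members could also be compared between them, with treatment as a term in the fit. This comparison was chosen after the data had been seen. Of the 60 members 7 were lower in experiment 2 than in experiment 1 and 0 were higher (11.7%, against 4.22% of all tested probe sets). All 7 encode matrix proteins or proteases, but by the rule so do most of the tested members. The cause was not tested, and what else differed between the experiments is not given in the sources used here.

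**Figure D4:**
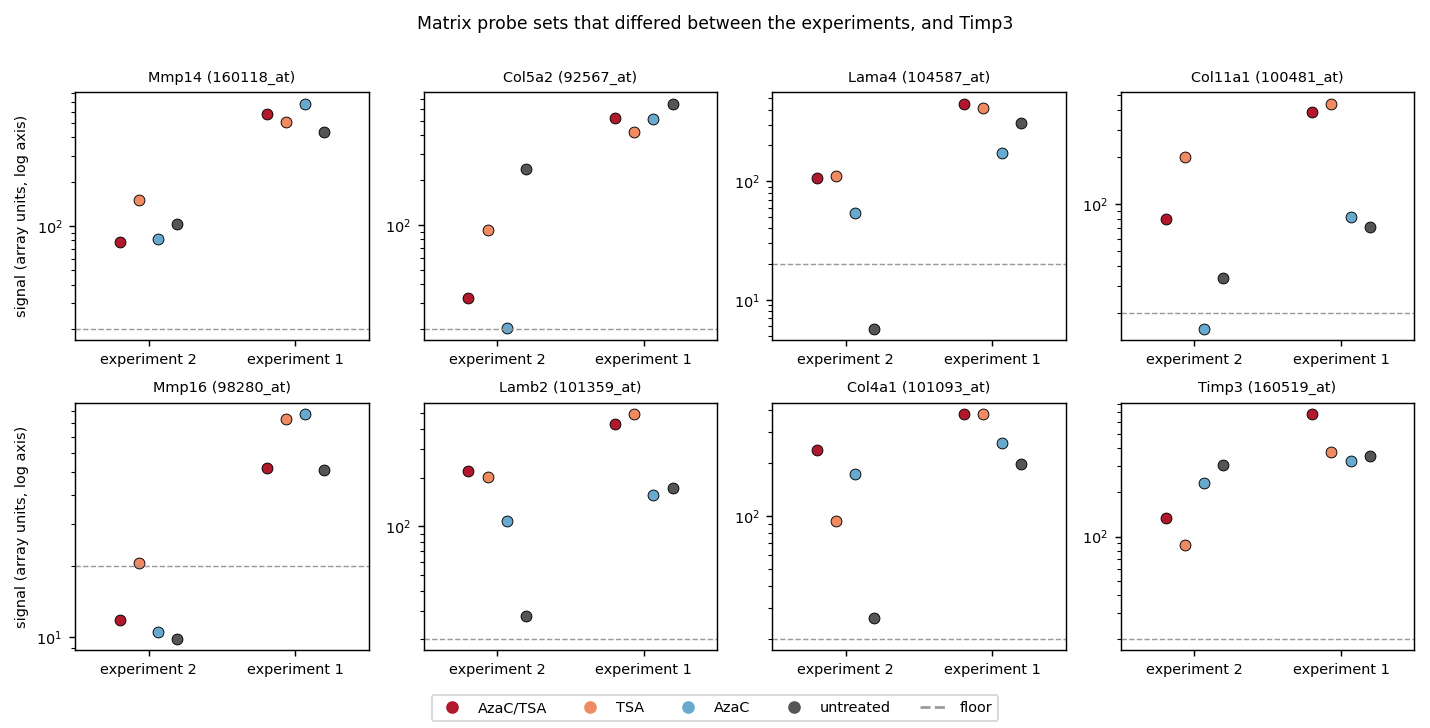
Signal on each array (log axis, array units) by experiment, experiment 2 left of experiment 1, for the 7 members that differed between experiments and for Timp3. Colours are the groups and the dashed line is the floor of 20. For Mmp14, Col5a2, Lama4, Mmp16 and Timp3 all 4 arrays of experiment 2 lie under all 4 of experiment 1.

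Mmp14, the membrane-anchored protease that activates pro-Mmp2, gave 78.5, 150.2, 81.2 and 104 in experiment 2 and 581, 508, 678 and 435 in experiment 1 (AzaC/TSA, TSA, AzaC and untreated cells in turn). No array of experiment 2 reached any of experiment 1. The fall was 5.44-fold (-2.44, SE 0.25, limma adjusted p = 0.00137, n = 4 arrays each), and it passed with any 1 array left out. Its TSA change was 0.12 (adjusted p = 0.943).

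Col5a2, the partner chain of Col5a1 in collagen V, gave 32.2, 92.3, 20.2 and 238 in experiment 2 and 521.5, 419.9, 512.5 and 651 in experiment 1. The experiments did not overlap (-3.08, SE 0.46, adjusted p = 0.00722). Lama4 gave 106.5, 111, 54.0 and 5.7 in experiment 2 and 449.5, 411, 171 and 309 in experiment 1, a fall of at least 5.26-fold (adjusted p = 0.00722). It was lost without TSA 1 (0.0519) or TSA 2 (0.05). Within each experiment both TSA-exposed arrays of Lama4 were above both others.

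The other 4 were Mmp16, another membrane-anchored protease (fell by at least 1.72 on the log2 scale, adjusted p = 0.0388), Col11a1 (at least 1.64, 0.0166), Lamb2 (1.36, 0.0466) and Col4a1 (1.54, 0.0483). Without 1 array, Mmp16, Lamb2 and Col4a1 were each lost whichever array it was, and Col11a1 without any array but the untreated ones. The count of 7 then became 2 (without either TSA array) to 5 (without either untreated array). It was 3 without either AzaC/TSA or either AzaC array.

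The TSA change itself was also compared between experiments. In 4 of 60 members (6.67%, against 4.59% of all tested probe sets) the TSA-exposed arrays lay above both others in 1 experiment and below both in the other. These were Tnc (second probe set), Itgb2, Itgb1bp1 (1 of 3 probe sets) and Timp3. None passed the test of that difference (limma, 0 of 60 past the threshold, 12 at an unadjusted p under 0.05). The count over all 7987 was 6, with 799 at an unadjusted p under 0.05.

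The other genes of matrix and adhesion were described through 5 lists. Over all tested probe sets 14.5% passed for TSA exposure, and 23.9% with the experiment as a block. Secreted matrix proteins outside the rule had 3 probe sets higher and 3 lower of 28 tested (21.4%, median 0.23). With the experiment as a block 9 were higher and 3 lower. Reln, the secreted guide of neuron layering, rose by at least 5.72-fold (log2 change 2.52, limma adjusted p = 0.0101), with signals of 217 and 44.3 in AzaC/TSA cells, 230.4 and 324 in TSA cells, 5.9 and 22.0 in AzaC cells, and 43.2 and 35.1 in untreated cells. Bcan, brevican, a proteoglycan of brain matrix, fell 4.17-fold (adjusted p = 0.00438) on its stronger probe set, with signals of 1239.6 and 701 in AzaC/TSA cells, 659 and 368 in TSA cells, 3906 and 1784 in AzaC cells, and 3623 and 2525 in untreated cells. Sparcl1, a relative of Sparc, fell 6.21-fold (adjusted p = 0.0333). On the 4 TSA-exposed arrays Bcan was at 1240 or less and on the others at 1784 or more.

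Proteases and enzymes that process matrix had 6 higher and 3 lower of 26 tested (34.6%, against 14.5% of all, median 0.30). With the block 6 were higher and 5 lower. The lysosomal protease Ctsd, cathepsin D, gave 8387 and 6228 in AzaC/TSA cells, 7751.5 and 7562 in TSA cells, 1829 and 1672 in AzaC cells, and 2128 and 2054 in untreated cells. The groups were far apart, a rise of 3.89-fold (1.96, SE 0.16, limma adjusted p = 0.000216). Ctsb, cathepsin B, rose on 3 probe sets, by log2 changes of 1.22, 1.61 and 1.04, and Ctsl, cathepsin L, by 1.31. Cathepsins act mainly in lysosomes. Those that fell were Adam12 and Adam19, both membrane proteases, and Pcolce, an enhancer of collagen propeptide cleavage (by 2.10, 1.37 and 1.02).

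Matrix receptors other than integrins had 2 higher and 2 lower of 22 tested (18.2%, median 0.40), and 6 higher and 4 lower with the block. Over all tested probe sets 14.5% passed, and 23.9% with the block. Bsg, basigin, known as an inducer of metalloproteinases, rose by 0.99 (limma adjusted p = 0.00404), and Cd47, an integrin-associated receptor of thrombospondin, by 0.67. Ptprz1, a phosphatase receptor of neural progenitors that binds Tnc, fell on 2 probe sets, by 2.14 and 1.75. In the integrin adhesion complex 5 of 48 probe sets rose and 0 fell (10.4%, median 0.09), a share under that of all. With the block 8 were higher and 3 lower. The 5 were Csrp1 (2 probe sets, 1.52 and 1.60), Actn4, an actin cross-linker (1.21), Pdlim7 (at least 1.71) and Ilk, a scaffold that ties beta 1 tails to actin (0.77). Another Pdlim7 probe set was under the floor on all 8 arrays. The TGF-beta pathway, an inducer of matrix genes in many tissues, had 0 of 21 past the threshold by limma, with or without the block. At an unadjusted p under 0.05 it had 3 (14.3%, against 29.6% of all). Its 2 probe sets of smallest p did not pass: Fst at 1.16 (adjusted p = 0.0787) and Smad1 at -0.55 (0.107).

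**Figure D5:**
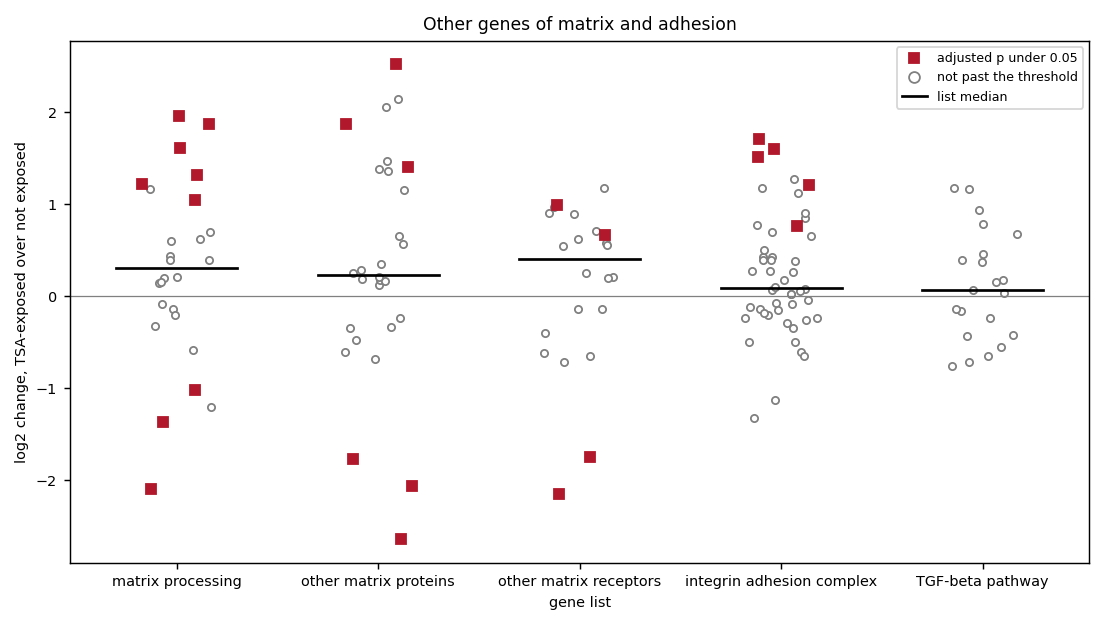
Log2 change of the 4 TSA-exposed arrays over the 4 not exposed for the tested probe sets of 5 lists of matrix and adhesion genes, with the list median as a black line. Filled squares are past the threshold. The matrix processing list has 6 squares above 0 and 3 below, and the TGF-beta pathway list has none.

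Markers of other cell types also moved with TSA. Over all tested probe sets 14.5% passed, and 23.9% with the block. The share was 60% in the neuron list, 28.6% in the fibroblast and meninges list and 10% in the neural stem and progenitor list. It was 20% in the microglia and macrophage list and 25% in the endothelial list, from 1 call each. In the neuron list 8 of 15 tested probe sets rose and 1 fell, with Snap25 at least 4.03 and Ncam1 2.37 on the log2 scale, and in the neural stem and progenitor list 1 of 10 fell, Fabp7 (by 1.89; with the block 1 was higher and 2 lower). In the fibroblast and meninges list 1 of 14 rose (Dcn, at least 1.41) and 3 fell (2 probe sets of Ptgds, and Pcolce). Cd68 of the microglia and macrophage list rose by 2.84, 1 of 5 tested, and Flt1 of the endothelial list by 1.18, 1 of 4 tested. The other 4 tested probe sets of the microglia and macrophage list lay below 0 (list median -0.51). So did the other 3 of the endothelial list (list median -0.22). None of 3 pericyte and none of 6 oligodendrocyte probe sets passed by limma (0 of each at an unadjusted p under 0.05). Of smallest p were Mcam (0.52, adjusted p = 0.265) and Notch3 (0.19, 0.7) of pericytes, and Mbp (at least 0.82, 0.223) and Pdgfra (at least 0.56, 0.398) of oligodendrocytes. Dcn and Pcolce also belong to the matrix lists. The part of these cell-type markers in the members' changes was not tested.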

How the data were processed

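Total RNA of 8 neurosphere samples was measured on Affymetrix-type arrays, and the deposited values are linear intensity, 1 per probe set and array. The deposited intensity values have the same 2%-trimmed mean on every array, 200.1. The software behind them is not given in the sources used here. The 66 control probe sets were left out, signals under 10% of that mean (20) were raised to it, and log2 values were taken. Tested probe sets reached 25% of the mean (50) on at least 2 arrays. Symbols came from the array annotation, and all 119 member probe sets had their gene in the RefSeq table.

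Linear models with moderated variances that follow the intensity (limma 3.58.1, R 4.3.3) were fitted to all 7987 tested probe sets and 8 arrays, with 1 mean per group, 7 contrasts, and Benjamini-Hochberg adjustment over all tested probe sets. The fits were tested on simulated data with independent noise on each array, which leaves out noise shared within an experiment. Arrays share an experiment by the numbers in their titles. Deviations from group means correlated between same-numbered arrays with r from 0.203 to 0.411 over all pairs of groups, so the experiment was also fitted as a block. The comparison between experiments, and of the TSA change between them, was added after seeing the data. Alternatives changed scaling, floor, filter, trend, groups fitted and probe sets, or left out an array. A group left with 1 array was assumed to vary like the others.

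The members, lists and named genes were chosen with earlier results of these data known. Named were members past the threshold in any contrast, a fixed set of 14 matrix genes, and, of each list, up to 4 members past the threshold in order of p, or otherwise the 2 of smallest p. Other members described, and further list members in counts of 5 or fewer, were chosen after their values were seen. Probe sets with signal under the filter were left out of tests.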

Additional observations from a re-analysis of the deposited data

Results flagged for a closer look

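For 4 member probe sets the TSA-exposed arrays lay above both other arrays in 1 experiment and below both in the other. The difference between the experiments' log2 changes (experiment 2 minus experiment 1) was 1.88 for the second Tnc probe set, from a change of 1.54 in experiment 2 and -0.34 in experiment 1. For Timp3 it was -1.87, from -1.29 in experiment 2 and 0.58 in experiment 1. It was 1.98 for Itgb2 and 1.40 for 1 probe set of Itgb1bp1. None of these differences passed in limma (adjusted p = 0.186 for Tnc, 0.195 for Timp3, 0.419 for Itgb2 and 0.515 for Itgb1bp1). Signals of Itgb2 were at most 56.2 on any array, close to the filter.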

How the results depend on the processing

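Counts of members past the threshold moved with several choices, and the cause was not tested. With the experiment as a replicate block, the counts were 9 for TSA against untreated, 10 for AzaC/TSA against untreated, 5 for AzaC/TSA against AzaC and 17 for TSA exposure, while over all probe sets 12.2%, 9.34%, 9.32% and 23.9% passed with it. The other treatment contrasts stayed at 0, and every call made without the block was kept. Without the filter these counts were 0, 0, 0 and 1, the members' median log2 change was 0.16, 0.051, 0.11 and 0.067 (with it 0.53, 0.69, 0.55 and 0.54), and the comparison of experiments gave 0. For AzaC/TSA against untreated the count of 1 became 0 with median centring, a floor of 20%, no intensity trend, only the groups compared or 1 probe set per gene, and 2 with an offset in place of the floor. AzaC/TSA against AzaC gave 1 with median centring or a filter of 50%, and the comparison of experiments gave 2 without the intensity trend. Leaving out 1 array gave 0 to 4 for TSA against untreated, 0 to 2 for AzaC/TSA against untreated, 0 to 1 for AzaC/TSA against AzaC, 3 to 8 for TSA exposure and 2 to 5 between experiments. In each of these comparisons, whichever array was left out, fewer of all tested probe sets passed than with all 8 arrays. The member counts for AzaC against untreated, AzaC/TSA against TSA, the interaction and the TSA change between experiments stayed at 0 in every alternative run. For TSA exposure Timp1 passed in 19 of 19 alternatives, Itgb5 and Col5a1 in 18, Col9a3 in 16, Lama5 in 14, Col11a1 in 11, Itgb1 in 10 and Itga3 in 7. With 1 array left out, the log2 change of Col4a2 ran from -0.068 to 0.43, with the sign turned without TSA 1 (-0.024) or untreated 2 (-0.068). That of Timp3 ran from -0.95 to 0.23, turned without AzaC/TSA 2 (0.23) or TSA 2 (0.16). Signal near the floor limits Itga3, Nid1, Mmp16, Lamb3 and most metalloproteinases.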
